A study of Mus musculus with 12 samples.

Results

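The 10 immediate early response genes described here were Fos, Fosb, Fosl1, Jun, Junb, Egr1, Ier2, Atf3, Dusp1 and Zfp36, taken by name from 43243 gene names in each of 12 RNA-seq libraries of mouse prostate organoids. All 10 were found and all 10 passed the level filter, RPKM of at least 1 in at least 6 libraries, among 13600 genes that did. RPKM is the authors' read number scaled by transcript length and library depth. SPOPmut organoids (6 libraries) carry a mutant of SPOP, the substrate-binding subunit of a cullin ubiquitin ligase, and were set against SPOPwt controls (6 libraries). Libraries carry the numbers S0 to S5 in each group and were treated as 6 pairs. By the protocols, prostate cells grew in Matrigel with EGF at 5 to 50 ng/ml. In the inducible lines CreERT2 came from a virus with puromycin selection (Line_A) or from a TMPRSS2-CreERT2 transgene (Line_B), and 1 μM 4-hydroxytamoxifen switched it on overnight. Mutant cells of these lines were sorted for GFP and controls were sham sorted, so the mutant and the GFP selection cannot be told apart there. A noninducible system with Cre under the Probasin promoter, active in prostate epithelium, is also described. The sequenced organoids were 5 pairs of model A and 1 pair of model B; no library label names its model, and the protocols do not state that these models are the lines above. No label gives the EGF dose of a library, the time since feeding or the time in the sorter. Nothing states that the pairs came from separate animals, so p-values measure the spread between these samples, which may be technical.

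Immediate early genes are switched on within minutes of a growth factor, serum or stress signal, without new protein synthesis. EGF acts on them through its receptor, RAS and the ERK kinases, and tissue digestion or cell sorting is also known to raise them. Fos and Jun family proteins pair to form the transcription factor AP-1, while Dusp1 and Zfp36 feed back on the response by removing phosphate from MAP kinases and by speeding the decay of short-lived mRNAs.

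Libraries S5 stood apart in both groups. Over 4 basal markers the mean log2(RPKM + 1) was 7.88 in the S5 mutant and 7.58 in the S5 control, against 0.41 to 0.96 in the other mutants and 0.26 to 0.86 in the other controls. Over 7 fibroblast and mesenchymal markers it was 0.66 in the S5 mutant and 0.65 in its control, against 5.74 to 6.74 in the other mutants and 5.52 to 6.54 in the other controls. Epcam, the defining epithelial marker, stood at 88.6 RPKM in the S5 mutant and 96.3 RPKM in its control, and its highest value elsewhere was 1.28 RPKM, so 10 of 12 libraries nearly lacked it despite the prostate organoid label. Luminal Krt18 reached 6.35 to 89.6 RPKM in those 10. Of 4 immune markers Ptprc and Cd3e were at or near 0 in all 12 libraries and Lyz2 was at most 0.45 RPKM, while Cd68 stood at 2.56 to 4.74 RPKM in SPOPmut and 2.13 to 4.40 RPKM in SPOPwt, and the endothelial list stayed at mean log2 levels of 0.03 to 0.64 in SPOPmut and 0.01 to 0.07 in SPOPwt. Same-numbered libraries deviated together from their group means in S1 to S5 (correlations across genes of 0.753 to 0.954) and hardly in S0 (0.0602). Depth, estimated from the spacing of low values, was 28280000 to 40980000 reads per library. Spop averaged 51.4 ± 3.66 RPKM in the mutants, against 46.0 ± 4.18 RPKM in the controls (SD, n = 6 each). It was higher in 6 of 6 pairs (0.16 on the log2 scale, SE 0.067, limma adjusted p = 0.886), and these values do not separate mutant from endogenous transcripts.

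Start-site sequences are shown for Fos, Junb, Zfp36, Jun and Dusp1. In Fos, Junb and Zfp36 the pair means of S3, S4 and S5 lay above those of S0, S1 and S2, and in Jun and Dusp1 they did not. By library, Junb was higher in the S0 mutant (76.4 RPKM) than in the S4 mutant (70.6 RPKM). Fosb and Ier2 had the same split of pair means and are not shown. The choice was made by level, and no link between sequence and level was tested. Each runs 5′ to 3′ from 250 bases before to 50 bases after the RefSeq start on GRCm38.p6. Fos lies at chr12:85473640-85473939 (plus strand), Junb at chr8:84978699-84978998 (minus), Zfp36 at chr7:28379179-28379478 (minus), Jun at chr4:95052173-95052472 (minus) and Dusp1 at chr17:26508423-26508722 (minus). Capitals mark TGACG (a partial form of the cyclic AMP response element), the full palindrome TGACGTCA, TGACATCA, GCGNGGGCG (bound by EGR proteins) and the CArG box (bound by serum response factor).
Fos: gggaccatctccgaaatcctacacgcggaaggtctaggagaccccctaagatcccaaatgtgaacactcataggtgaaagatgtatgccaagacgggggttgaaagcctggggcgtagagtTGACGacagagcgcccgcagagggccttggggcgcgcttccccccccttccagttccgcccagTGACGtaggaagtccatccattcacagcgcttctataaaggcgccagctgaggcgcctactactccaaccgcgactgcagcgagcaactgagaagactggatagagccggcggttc
Junb: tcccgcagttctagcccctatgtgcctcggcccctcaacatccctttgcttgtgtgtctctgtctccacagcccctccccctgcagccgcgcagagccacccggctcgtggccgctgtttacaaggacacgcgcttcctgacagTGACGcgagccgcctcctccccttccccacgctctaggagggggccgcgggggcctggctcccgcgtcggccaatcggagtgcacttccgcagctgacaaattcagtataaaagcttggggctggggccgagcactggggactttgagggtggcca
Zfp36: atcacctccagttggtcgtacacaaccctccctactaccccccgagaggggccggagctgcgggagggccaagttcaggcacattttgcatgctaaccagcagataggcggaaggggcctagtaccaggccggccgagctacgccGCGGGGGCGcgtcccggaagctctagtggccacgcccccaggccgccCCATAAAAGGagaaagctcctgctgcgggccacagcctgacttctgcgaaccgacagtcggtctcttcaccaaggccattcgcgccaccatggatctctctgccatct
Jun: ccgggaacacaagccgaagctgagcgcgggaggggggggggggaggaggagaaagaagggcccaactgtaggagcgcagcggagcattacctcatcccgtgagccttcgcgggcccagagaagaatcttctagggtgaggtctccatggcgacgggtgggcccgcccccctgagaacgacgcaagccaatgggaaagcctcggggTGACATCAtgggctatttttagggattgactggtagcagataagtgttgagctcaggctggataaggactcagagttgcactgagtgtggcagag
Dusp1: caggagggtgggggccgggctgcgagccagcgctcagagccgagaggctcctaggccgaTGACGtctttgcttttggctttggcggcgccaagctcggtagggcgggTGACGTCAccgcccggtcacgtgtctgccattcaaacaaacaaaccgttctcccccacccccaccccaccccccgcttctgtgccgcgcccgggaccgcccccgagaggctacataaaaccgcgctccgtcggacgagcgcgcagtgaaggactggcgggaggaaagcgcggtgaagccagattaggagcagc

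RefSeq start sequences of 7 of the 10 genes were used, and both strands were searched. Fosl1 and Ier2 had no matched sequence. Egr1 was not searched, because sequences on chromosome 18, where it lies, were left out for the 10 genes. Elements of Egr1 are thus not counted, while the shares over all start sequences kept that chromosome. TGACG lay in 5 of the 7 (Fos, Fosb, Junb, Atf3 and Dusp1) and in 20.8% of all 32851 start sequences of the same length. In Fos it began 129 and 66 bases upstream of the start, and in Junb 106 bases upstream. Dusp1 alone held the palindrome TGACGTCA (143 bases upstream), which contains TGACG on both strands and was found in 1.79% of all sequences. The CArG box was found in Zfp36 (58 bases upstream) and in 1.63% of all, and GCGNGGGCG in Fosb and Zfp36 and in 5.55% of all. TGACATCA was found in Jun, 45 bases upstream, and in 3.62% of all, while the AP-1 element TGANTCA was in none of the 7 and in 7.81% of all. These matches describe letters in this window, and the well-known serum response element of Fos lies further upstream.

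The levels of the Fos family differed more between pairs than between genotypes. Fos, the AP-1 subunit that gives the family its name, stood in SPOPmut at 9.74 (S0), 4.92 (S1), 7.32 (S2), 58.4 (S3), 29.2 (S4) and 95.1 RPKM (S5). In SPOPwt it stood at 3.99 (S0), 5.80 (S1), 5.58 (S2), 52.4 (S3), 39.4 (S4) and 74.9 RPKM (S5). S3, S4 and S5 were thus high and S0, S1 and S2 low in both genotypes, with no overlap, over a 23.8-fold range. Pair means on the log2(RPKM + 1) scale ran in the order S5 (6.42), S3 (5.82), S4 (5.13), S2 (2.89), S0 (2.87) and S1 (2.67). The residual SD within pairs was 0.37, so S2, S0 and S1 lay closer together than that spread, and the step of S4 above S2 was far larger.

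Fosb, a close relative of Fos, followed a like order at lower levels. Its levels were 0.56, 1.56 and 15.9 RPKM in SPOPmut (lowest, median and highest) and 0.49, 1.28 and 9.75 RPKM in SPOPwt. Both highest values belonged to S5 and both lowest to S1.

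Fosl1, which encodes the Fos-related protein FRA1, ran the other way. It stood in SPOPmut at 33.4 (S0), 64.2 (S1), 52.1 (S2), 17.1 (S3), 20.5 (S4) and 20.8 RPKM (S5). In SPOPwt it stood at 64.8 (S0), 48.8 (S1), 61.0 (S2), 25.3 (S3), 41.4 (S4) and 10.9 RPKM (S5). S1 and S2 were high and S3 and S5 low in both genotypes. The Fosl1 gene spans 5447547 to 5455946 of chromosome 19 in GRCm38, and 57.2% of its exon bases in GENCODE M21 overlap the opposite-strand gene Ccdc85b. The kit does not mark strand, and Ccdc85b itself stood at 45.2 to 55.8 RPKM in S1 and S2 and at 5.10 to 22.1 RPKM elsewhere, so the Fosl1 level is uncertain.

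RPKM is per length, so the family members can be set side by side, but the ratios and shares that follow include any Ccdc85b reads counted as Fosl1, for which no correction was made. In S0, S1 and S2 Fosl1 exceeded Fos in every library, by 3.43-fold to 13.0-fold in SPOPmut and 8.42-fold to 16.2-fold in SPOPwt. In S3 and S5 Fos exceeded Fosl1, by 3.42-fold and 4.56-fold in SPOPmut and by 2.07-fold and 6.90-fold in SPOPwt. S4 lay between, with Fos over Fosl1 at 1.42 in SPOPmut and 0.95 in SPOPwt. Of the summed RPKM of Fos, Fosb, Fosl1 and Fosl2, Fos held 4.66 to 11.5% in S0 to S2 mutants and 3.97 to 6.10% in their controls, but 55.2% and 58.5% in the S5 mutant and control. Fosl2, a relative outside the 10 genes, kept a share of 23.5 to 47.4% in SPOPmut and 25.4 to 46.1% in SPOPwt.

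**Figure D1:**
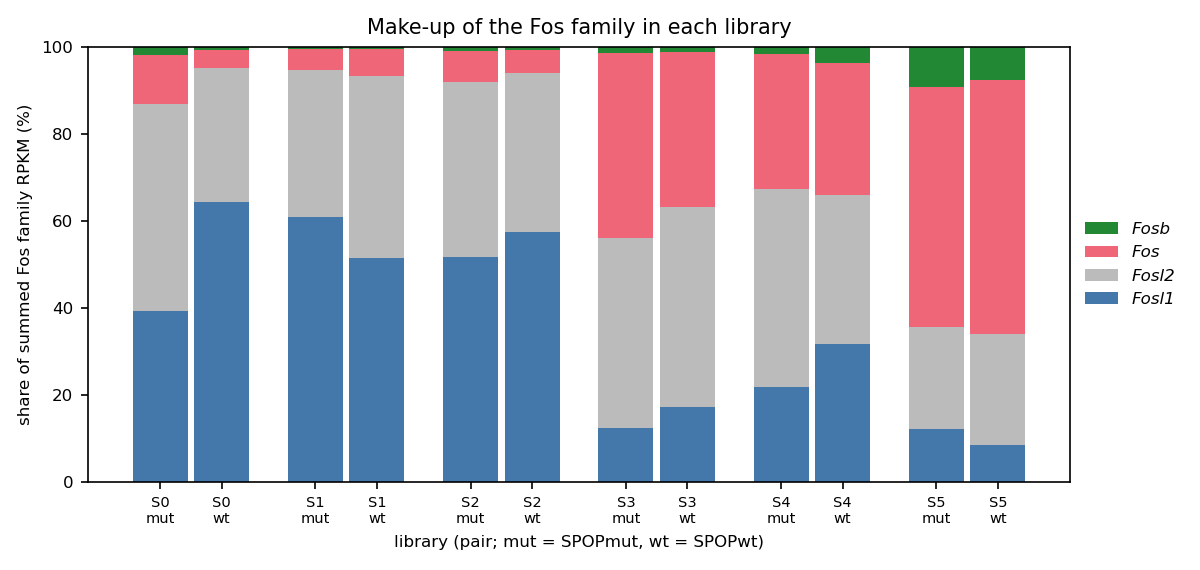
Stacked bars give the share of each Fos family gene (Fosl1, Fosl2, Fos, Fosb from the bottom up) in the summed RPKM of the 4, in percent, for the SPOPmut (left) and SPOPwt (right) library of each pair, with Fosl1 not corrected for its overlap with Ccdc85b. Fosl1 held 39.3 to 64.4% in S0 to S2 and Fos held 55.2 and 58.5% in the S5 mutant and control.

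Among the Jun family, Junb and Jund varied between pairs, in different orders, and Jun hardly did. Junb, an AP-1 subunit, stood in SPOPmut at 76.4 (S0), 41.9 (S1), 43.8 (S2), 112 (S3), 70.6 (S4) and 137 RPKM (S5). In SPOPwt it stood at 23.5 (S0), 40.3 (S1), 47.0 (S2), 179 (S3), 68.0 (S4) and 99.0 RPKM (S5). S3 and S5 were highest in both genotypes, and the 2 S0 libraries were unlike each other. Junb shares 7.52% of its exon bases with the opposite-strand gene Prdx2, which stood at 37.0 to 52.9 RPKM across libraries. Jund, a relative outside the genes chosen here, stood in SPOPmut at 26.7 (S0), 50.4 (S1), 46.0 (S2), 11.6 (S3), 8.69 (S4) and 26.7 RPKM (S5). Its SPOPwt levels were 19.7 (S0), 42.7 (S1), 47.0 (S2), 21.7 (S3), 9.65 (S4) and 16.0 RPKM (S5). For Jund, S1 and S2 were thus highest and S4 lowest in both genotypes, unlike for Junb.

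Jun, the usual partner of Fos in AP-1, was the least variable of the 10 genes between pairs. It stood at 21.2, 24.0 and 27.6 RPKM (lowest, median and highest) in SPOPmut and at 15.4, 28.2 and 31.5 RPKM in SPOPwt. Between pairs its SD was 0.15 on the log2(RPKM + 1) scale, above 12.9% of the genes tested, and within pairs its residual SD was 0.34. Only 26.8% of its variation lay between pairs, against 97.1% for Fos and a median of 86.2% over all genes tested.

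Egr1, a zinc finger transcription factor induced by ERK through serum response factor, stood in SPOPmut at 131 (S0), 60.3 (S1), 74.9 (S2), 212 (S3), 193 (S4) and 40.6 RPKM (S5). In SPOPwt it stood at 37.9 (S0), 73.8 (S1), 69.6 (S2), 223 (S3), 200.4 (S4) and 30.0 RPKM (S5). S3 and S4 were thus high as for Fos, but S5, highest for Fos, held the lowest Egr1 level of each genotype.

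Ier2, a nuclear protein of the immediate early response, had levels of 27.8, 44.1 and 68.5 RPKM in SPOPmut and 20.8, 36.1 and 89.6 RPKM in SPOPwt (lowest, median and highest), with S3 at the top of both. Atf3, a stress-induced factor of the ATF family, had levels of 1.33, 2.83 and 14.7 RPKM in SPOPmut and 1.05, 3.33 and 13.2 RPKM in SPOPwt. S5 was highest and S4 lowest in both genotypes, so Atf3 did not share the high level that Fos had in S4.

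Of the feedback genes, Zfp36 (tristetraprolin, which directs AU-rich mRNAs to decay) was high in the same 3 pairs as Fos. It stood in SPOPmut at 29.2 (S0), 10.4 (S1), 11.8 (S2), 104 (S3), 56.7 (S4) and 48.5 RPKM (S5). In SPOPwt it stood at 8.95 (S0), 12.3 (S1), 12.2 (S2), 95.9 (S3), 67.9 (S4) and 32.4 RPKM (S5). S3, S4 and S5 lay above S0, S1 and S2 in both genotypes. Dusp1, a MAP kinase phosphatase, ranged only from 21.9 to 32.8 RPKM in the S0 to S4 mutants and from 23.7 to 36.8 RPKM in their controls, and stood at 73.1 and 46.7 RPKM in the S5 mutant and control.

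**Figure D2:**
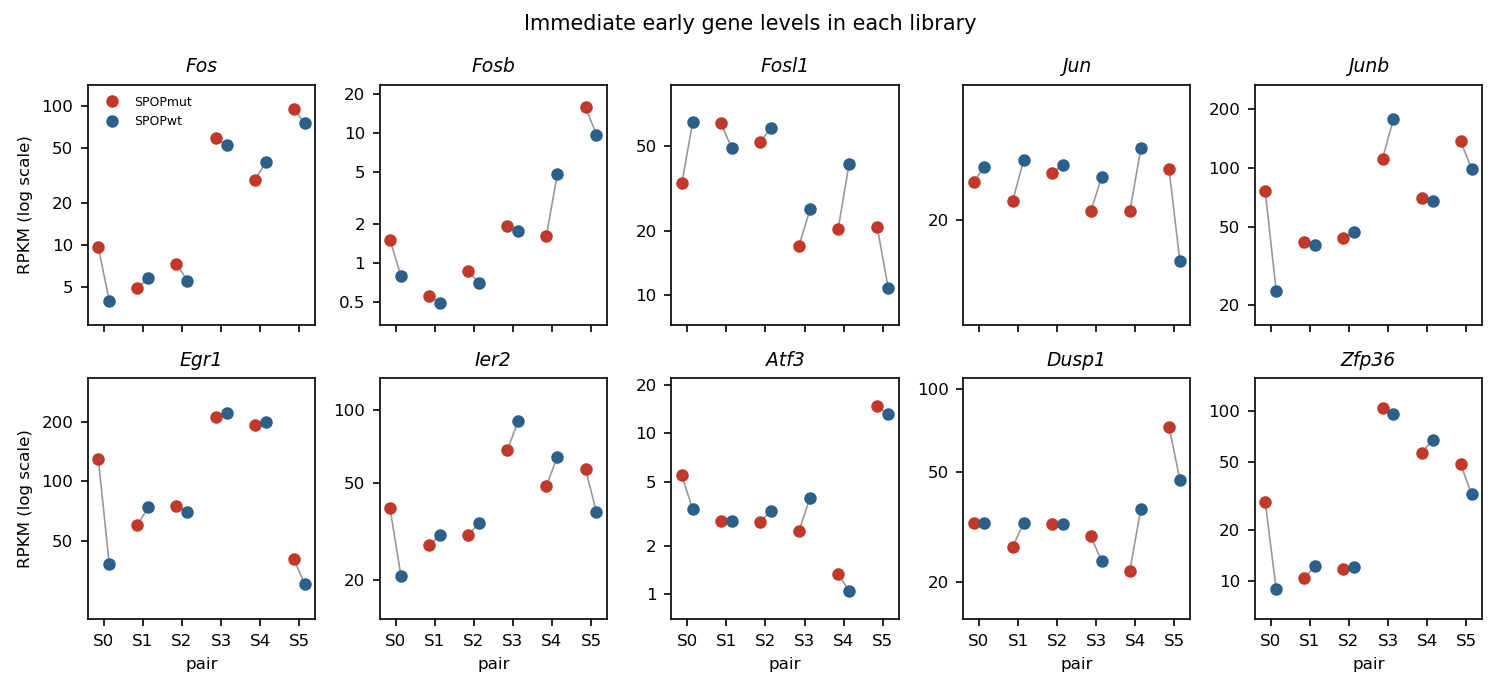
Each panel gives the RPKM (log scale, its own range per gene) of 1 gene in the 6 pairs, with SPOPmut in red on the left and SPOPwt in blue on the right of each pair, joined by a line. Fos and Zfp36 lie high in S3, S4 and S5 in both genotypes, Fosl1 is lower there, and Jun stays between 15.4 and 31.5 RPKM.

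Within each group the labelled barcodes of S1 and S3 are the same, as are those of S2 and S4. The 4 libraries of S3 and S4 held 29.2 to 58.4 RPKM of Fos and 56.7 to 104 RPKM of Zfp36, and the 4 of S1 and S2 held 4.92 to 7.32 and 10.4 to 12.3 RPKM. Fos (7.60) and Zfp36 (6.95) had the highest ratios of means, S3 and S4 over S1 and S2, among the 10 genes. The ratio was 3.91 for Fosb, 2.97 for Egr1, 2.48 for Junb and 2.20 for Ier2. For Jun it was 0.93, for Dusp1 0.90, for Atf3 0.75 and for Fosl1 0.46. In bulk RNA, more cells with a transcript and more transcript per cell cannot be told apart.

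Between SPOPmut and SPOPwt none of the 10 genes passed the test. limma, fitted to log2(RPKM + 1) with pair and genotype over all 13600 genes, called 0 of 10, with 0% of all genes called at an adjusted p under 0.05. None of the 10 had an unadjusted p under 0.05 either, where 5.6% of all genes did. None had a single direction in all 6 pairs, where 5.3% of all genes did. On average 7 of the 10 were higher in SPOPmut, where 50.2% of all genes were, and the median difference was 0.054 against 0.00055 over all genes.

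The largest positive fitted differences were those of Egr1, Zfp36, Junb and Fos. Egr1 averaged 119 ± 71.8 RPKM in SPOPmut, against 106 ± 84.1 RPKM in SPOPwt (n = 6 each, SD), a log2 difference of 0.31 (SE 0.25, 95% confidence interval -0.25 to 0.88, limma adjusted p = 0.887). Zfp36 averaged 43.5 ± 35.2 RPKM in SPOPmut, against 38.3 ± 35.9 RPKM in SPOPwt, a difference of 0.30 (SE 0.23, interval -0.24 to 0.83, limma adjusted p = 0.887). For Junb the means were 80.2 ± 37.8 and 76.1 ± 56.6 RPKM in SPOPmut and SPOPwt, with a difference of 0.24 (SE 0.26, interval -0.35 to 0.84, limma adjusted p = 0.899). For Fos they were 34.1 ± 36.1 RPKM in SPOPmut and 30.4 ± 29.9 RPKM in SPOPwt, with a difference of 0.22 (SE 0.18, interval -0.19 to 0.63, limma adjusted p = 0.887). Without pair S0 alone the differences were 0.022 for Egr1, 0.035 for Zfp36, -0.041 for Junb and 0.043 for Fos. S0 is also the pair whose libraries hardly deviated together. All 4 intervals of the full fit include 0, and their upper ends lie at 0.63 to 0.88, so differences up to that size remain possible.

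Fosl1 averaged 34.7 ± 19.4 RPKM in SPOPmut, against 42.0 ± 20.9 RPKM in SPOPwt (n = 6 each, SD), a difference of -0.23 (SE 0.24, interval -0.79 to 0.33). Jun averaged 24.1 ± 2.90 RPKM in SPOPmut, against 26.4 ± 5.68 RPKM in SPOPwt, a difference of -0.10 (SE 0.16, interval -0.47 to 0.27), and was lower in SPOPmut in 5 of 6 pairs. The other 4 genes had fitted differences of 0.067 (Ier2, SE 0.18), 0.040 (Fosb, SE 0.21), 0.037 (Atf3, SE 0.13) and -0.011 (Dusp1, SE 0.16). Exact two-sided p-values from flipping the signs of the 6 pair differences ran from 0.406 to 0.969 over the 10 genes, where 0.03125 is the smallest that 6 pairs allow.

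The pairs went different ways. The S0 libraries hardly deviated together across genes (correlation 0.0602), so the values do not bear out that they are a pair. In S0 8 of 10 genes were higher in the mutant, where 49.2% of all genes were, and 4 were higher by at least 2-fold on the log2(RPKM + 1) scale, where 4.15% of all genes were. These 4 were Egr1 (1.76), Junb (1.66), Zfp36 (1.60) and Fos (1.11), while Fosl1 was lower (-0.93) and Jun (-0.13) and Dusp1 (0.0079) differed little. In S5 all 10 were higher in the mutant, where 49.5% of all genes were, by 0.15 (Atf3) to 0.88 (Fosl1). Jun (0.80), Fosb (0.65) and Dusp1 (0.63) also lay near the top there.

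In the other pairs most of the 10 genes were lower in the mutant. The count was 7 of 10 in S1 (41.1% of all genes), 7 in S2 (34.3%), 6 in S3 (48.7%) and 8 in S4 (58%). The medians of the 10 genes were -0.17, -0.052, -0.19 and -0.40 in S1 to S4, against 0.73 in S0 and 0.57 in S5. In S4 Fosb was lower by more than 2-fold (-1.16), as 0.125% of all genes were, and Fosl1 (-0.98) and Dusp1 (-0.72) followed. In S3 the largest differences were those of Junb (-0.67), Fosl1 (-0.54) and Atf3 (-0.51). Each pair holds 1 library per genotype, so no pair's difference has a replicate check of its own.

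**Figure D3:**
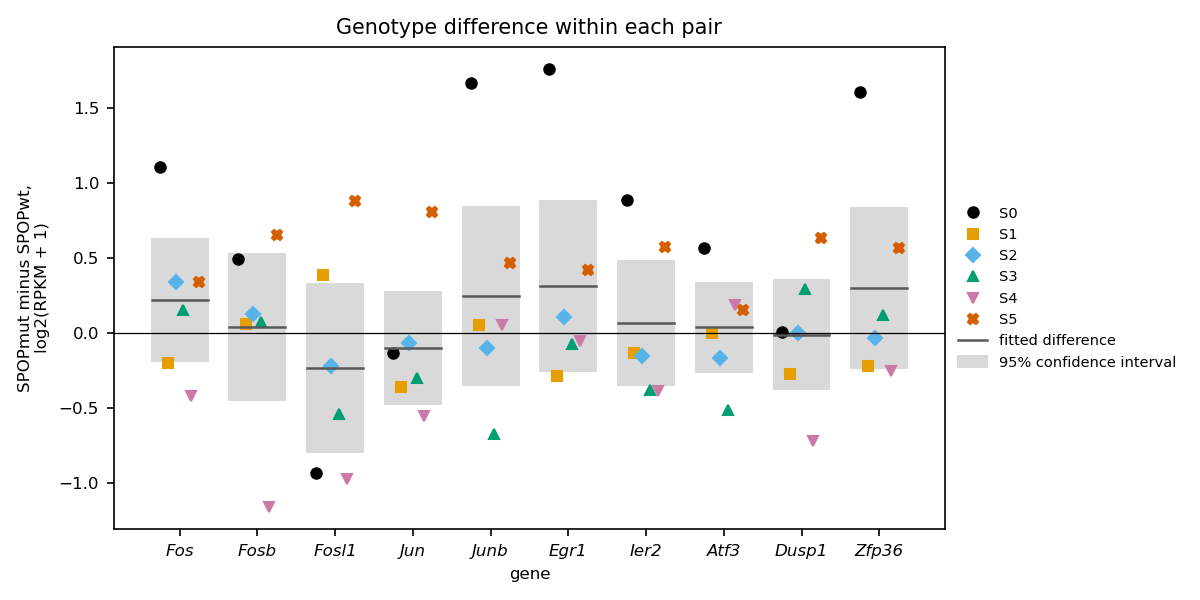
Points give the SPOPmut minus SPOPwt difference in log2(RPKM + 1) of each gene in each of the 6 pairs. Lines and grey bands give the limma fitted difference and its 95% confidence interval, and all 10 bands include 0. Points of S0 lie highest for Egr1, Junb, Zfp36 and Fos, and those of S5 lie above 0 for all 10 genes.

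The 7 genes with a positive fitted difference were also fitted without pairs S0 and S5. In these pairs the median of the 10 genes was above 0 (0.73 and 0.57), unlike in S1 to S4. Leaving both out was thus bound to lower the typical difference. Leaving out S0 alone kept Fos, Egr1 and Zfp36 above 0 and took Fosb, Junb, Ier2 and Atf3 below 0. Without both pairs the fitted difference was below 0 for all 7, at -0.032 for Fos, -0.078 for Egr1, -0.098 for Zfp36, -0.12 for Atf3, -0.17 for Junb, -0.22 for Fosb and -0.26 for Ier2, and none was called.

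Other genes of the response were counted over whole lists. Of 39 further immediate early genes, 32 were tested, 0 were called, 19 were higher and 13 lower on average in SPOPmut, and the median difference was 0.03. Over all genes tested 50.2% were higher on average. Myc, the growth-promoting transcription factor, had the smallest p (-0.39, SE 0.11, limma adjusted p = 0.881), followed by Klf10 (-0.19, SE 0.099, limma adjusted p = 0.887). Cyr61, a secreted matrix protein and the most abundant of the list, averaged 255 ± 85.2 RPKM in SPOPmut, against 284 ± 145 RPKM in SPOPwt (n = 6 each, SD). It was lower in the mutant in S0 to S4 and higher by 1.40 in S5. By pair, 26 of the 39 were higher in the mutant in S0 and 34 in S5, where 49.2% and 49.5% of all genes tested were. The medians were 0.30 and 0.29, against -0.24 to 0 in S1 to S4. These counts and medians include list genes that did not pass the level filter.

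Genes of the signalling route were counted in the same way. Of 24 genes from the EGF receptor to ERK, 24 were tested, 0 were called, and the median was 0.03. The medians by pair ran from -0.037 to 0.12. Egfr, the EGF receptor, averaged 11.1 ± 3.67 RPKM in SPOPmut, against 9.76 ± 3.74 RPKM in SPOPwt, and was higher in 6 of 6 pairs by 0.18 on average (SE 0.067, limma adjusted p = 0.881). Elk4, a partner of serum response factor, differed by 0.15 (SE 0.073) and Mapk3, the kinase ERK1 and the most abundant of the list, by 0.077 (SE 0.083). Of 13 genes listed as ERK feedback genes, 0 were called. Their medians by pair were 0.32 in S0, 0.11 in S1, -0.015 in S2, -0.059 in S3, -0.40 in S4 and 0.12 in S5. The number higher in the mutant was 10 of 13 in S0, 9 in S1, 6 in S2, 4 in S3, 1 in S4 and 11 in S5. The share of all genes tested was 49.2% in S0, 58.9% in S1, 65.7% in S2, 51.3% in S3, 42.0% in S4 and 49.5% in S5. The phosphatase gene Dusp5 had the smallest p (-0.47, SE 0.12, limma adjusted p = 0.769) and was lower in S0 to S4 and higher by 0.08 in S5. Spry1, an inhibitor of receptor signalling, differed by 0.21 (SE 0.11), and Ier3, the most abundant, by 0.12 (SE 0.24), with 1.54 in S0.

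S0 was the pair with the largest differences over all genes, of which 7.36% differed by at least 2-fold there, against 0.0735 to 0.669% in S1 to S5. The NF-kB and heat shock lists also had their largest medians in S0. Of 15 NF-kB response genes, 15 were higher in the S0 mutant (median 1.35) and 13 in the S5 mutant (median 0.15). Over all genes tested 49.2% were higher in the S0 mutant and 49.5% in the S5 mutant. The NF-kB medians of S1 to S4 ran from -0.10 to 0.02. Of the 12 NF-kB genes tested, 12 were higher and 0 lower on average in SPOPmut (median 0.27), where 50.2% of all genes tested were higher. By limma 2 of these 12 had an unadjusted p under 0.05 and 0 were called. Relb stood at 0.34 (SE 0.12), Nfkb1 at 0.24 (SE 0.095) and the abundant chemokine gene Cxcl5 at 0.30 (SE 0.46). Heat shock genes, induced by stress, were higher in only 3 of 16 in the S0 mutant (median -0.42) and in 9 of 16 in S5 (median 0.02), with 0 called. Hspb1 differed by 0.27 (SE 0.14), Hspa5 by -0.18 (SE 0.12) and Hsp90ab1 by -0.13 (SE 0.11). Luminal markers moved with S0 as well. Krt8, a luminal keratin, stood at 21.5 RPKM in the S0 mutant, against 4.45 RPKM in its control, and was higher in 6 of 6 pairs (1.09, SE 0.23, limma adjusted p = 0.769). Cd24a stood at 58.2 RPKM in the S0 mutant, against 35.0 RPKM in its control. The basal list stood at 7.88 in the S5 mutant and 7.58 in its control. The part of these lists, and of cell make-up, in the S0 and S5 differences was not tested.

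**Figure D4:**
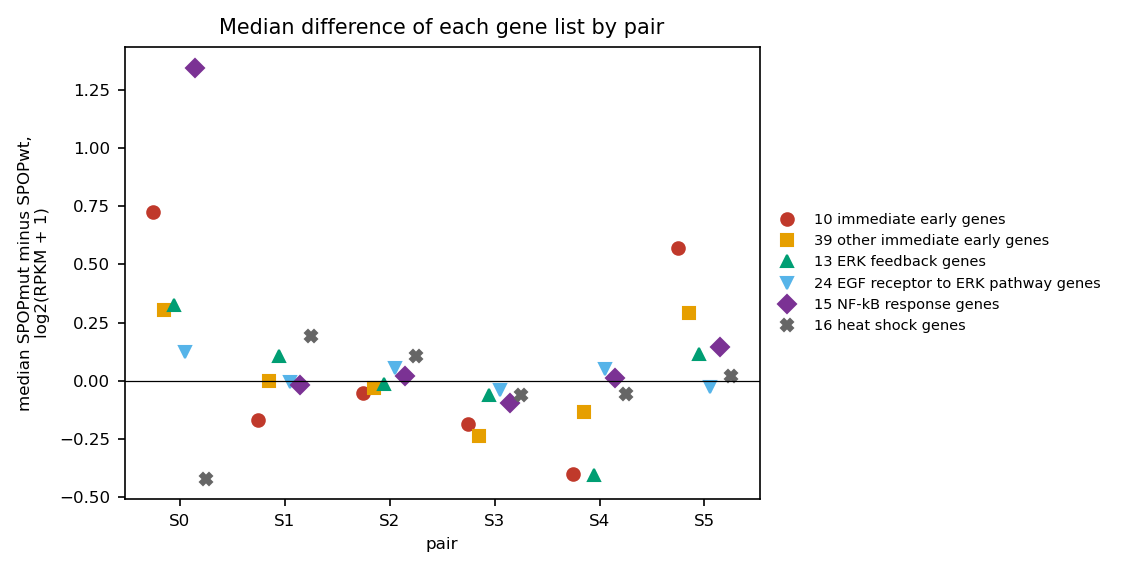
Points give the median SPOPmut minus SPOPwt difference in log2(RPKM + 1) of 6 gene lists in each pair, over all list members in the files; marker lists are not plotted. Of these 6 in S0, the NF-kB list (1.35) and the 10 immediate early genes (0.73) lie highest and heat shock genes lowest (-0.42), and in S5 the 10 genes lie at 0.57.

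Immediate early genes also varied more within pairs than most genes. Their residual SD ran from 0.26 (Atf3) to 0.56 (Junb), with a median of 0.41, against a median of 0.16 over all genes tested. All 10 lay above that median, and the 9 other than Atf3 lay above at least 90.2% of all genes. This was uneven over the pairs. In S0, which the values do not bear out as a pair, their median absolute difference was 0.91, against 0.33 over all genes. It was 0.21 against 0.14 in S1, 0.12 against 0.091 in S2 and 0.30 against 0.10 in S3. In S4 it was 0.40 against 0.11, and in S5 0.57 against 0.16. Between pairs the SD of the 10 genes had a median of 0.84, against 0.32 over all genes, and 9 of 10 lay above it, with Jun below. As a share of each gene's variation, the part between pairs had a median of 83.8% in the 10 genes, against 86.2% over all genes tested. Since limma weighs a difference against the spread within pairs, a given fold change was harder to detect in these genes than in most.

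**Figure D5:**
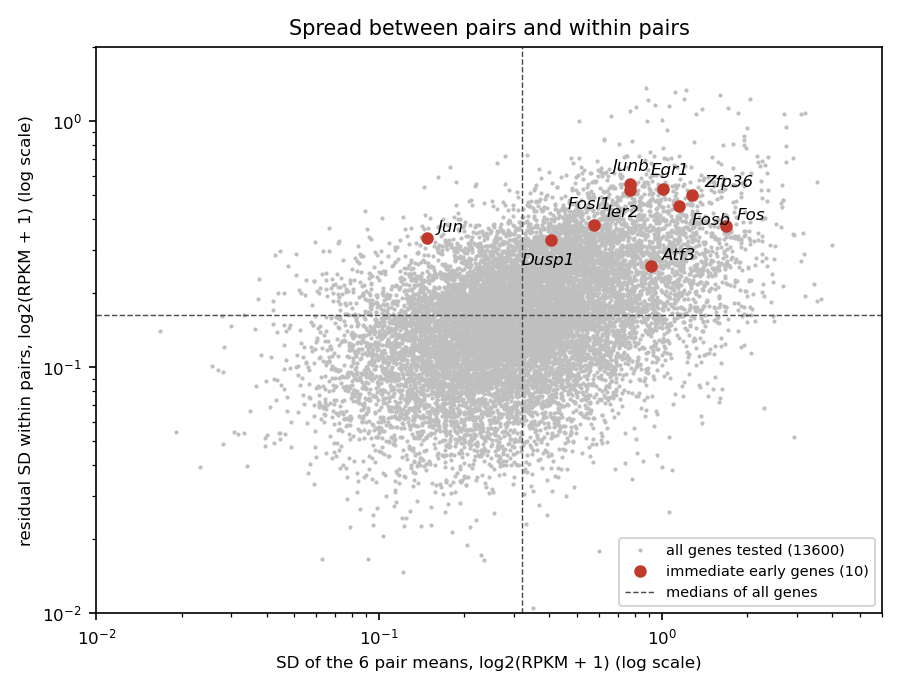
Each grey point is 1 of 13600 genes, with the SD of its 6 pair means on the x axis and its residual SD within pairs on the y axis, both in log2(RPKM + 1) on log scales. Dashed lines mark the medians of all genes (0.32 and 0.16). The 10 immediate early genes, in red, all lie above the y median, and Jun alone lies left of the x median.

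By Pearson correlation over the 12 libraries among 9857 protein-coding genes, those most like the mean of the 10 genes were Ell (r = 0.96), Hivep2 (0.96), Zmynd15 (0.96), Mmp13 (0.96) and Trim21 (0.95). Those most like Fos were Trim25 (0.99), Mdfi (0.99), Cox19 (0.99), Srpk2 (0.98) and Cdip1 (0.98). Hivep2 stood at 1.71 to 9.70 RPKM, and Trim25 at 6.15 to 14.8 RPKM. The libraries of S1 to S5 deviate by pair, so the 12 points are not independent.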

How the data were processed

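Per the labels' protocols, unstranded TruSeq libraries were read as 51-base pairs. The deposited values are RPKM, computed by the authors from read number, transcript length and depth, 1 file per library. Per the submitters' processing notes, STAR 2.4.0j and mm10/GRCm38 were used. No source used here names the counting program, the annotation or the treatment of multi-mapping reads. GENCODE M21 exon lengths (91.0% of names matched) gave the depth, through the steps between low values. Of low values, 35.4 to 38.6% lay within 0.04 of a step, taken as 0.5 reads, where 8% would by chance, so whole reads were not recovered and no count test was run.

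The 13600 genes that reached an RPKM of 1 in 6 or more of the 12 libraries were fitted in limma 3.58.1 (R 4.3.3) on log2(RPKM + 1), with pair and genotype and a trended, robust prior. This scale understates changes of low genes. The Benjamini-Hochberg method adjusted the p-values over all 13600, and calls were made under 0.05. The fit was tested on simulated data. Summaries used pandas 2.3.3 and scipy 1.17.1 under Python 3.11.15. Coordinates are those of GENCODE M21 and RefSeq on GRCm38. The labels' protocols describe mutant-control pairs, taken here as the shared numbers S0 to S5. Same-numbered libraries deviated together in 5 of 6 pairs. No libraries were merged. The closest in each group were S1 and S2, with a median chi-square per gene of 1.08 in the controls and 1.84 in the mutants. The next closest stood at 6.46 in the controls and 6.72 in the mutants, where sampling alone gives 0.455. Reads behind these values are approximate, so 0.455 is not an exact floor. S1 and S2 were counted as separate pairs in the tests. The members and lists were chosen with earlier results of these data known. Beyond the 10 genes, each list is represented by its 2 genes of smallest p and its most abundant one. The pair values named in each paragraph on S0 to S5 were chosen after they were seen. Alternatives were another pseudocount, filters, scalings, priors and pair weights, no block for pair, and leaving out pairs.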

Additional observations from a re-analysis of the deposited data

Results flagged for a closer look

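Among 30 sets of 6 values (each gene's RPKM in either genotype and its pair differences), 8 held a library or pair far from the rest. The rule's chance rate is about 1 in 20 for a single set. These sets share libraries and the differences reuse the RPKM, so the count of 8 cannot be judged against that rate. In SPOPmut the S5 library stood out for Fosb (15.9 RPKM, next 1.92), Atf3 (14.7 RPKM, next 5.48) and Dusp1 (73.1 RPKM, next 32.8). In SPOPwt it stood out for Atf3 (13.2 RPKM, next 3.98) and for a low Jun (15.4 RPKM, next 26.3). Among the differences, S0 stood out for Egr1 (1.76, next 0.42), S4 for Fosb (-1.16, next 0.060) and S5 for Jun (0.80, next -0.067). Basal and epithelial markers set S5 apart in the same libraries, and their part in these values was not tested.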

How the results depend on the processing

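Under all 15 alternatives 0 of the 10 genes were called by limma, and the lowest adjusted p was 0.358 (Ier2, without S0 and S5). Over all genes 0 were called in each, except that weights per pair called 9. Without the replicate block the fitted differences were the same, 0 genes were called and 29 had an unadjusted p under 0.05, against 761 with it. The median difference of the 10 genes ranged from -0.045 (without S0) to 0.22 (without S4) when 1 pair was left out, and was -0.17 without S0 and S5 and -0.071 with weights per pair. Signs changed in 21 of 149 values, none of them called. Without S0 and S5 they were Fos (-0.032), Fosb (-0.22), Junb (-0.17), Egr1 (-0.078), Ier2 (-0.26), Atf3 (-0.12) and Zfp36 (-0.098). With weights per pair they were Fosb (-0.017), Junb (-0.10), Ier2 (-0.16) and Atf3 (-0.13). Dusp1 was 0.028 with quantile normalization and 0.0018 when rescaled to 1 sum per library. Leaving out 1 pair gave ranges of -0.082 to 0.28 (Fosb), -0.041 to 0.43 (Junb), -0.097 to 0.16 (Ier2), -0.069 to 0.15 (Atf3) and -0.14 to 0.13 (Dusp1), and, with no change of sign, 0.022 to 0.43 (Egr1), 0.035 to 0.41 (Zfp36), 0.043 to 0.35 (Fos), -0.46 to -0.086 (Fosl1) and -0.28 to -0.011 (Jun). The cause of these changes was not tested. Fosb fell below the filter of RPKM of at least 1 in all 12 libraries and has no value there.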
